A study of Aspergillus niger with 4 samples.

Results

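In a delta-hapX strain of the filamentous fungus Aspergillus niger, 83 of the 10898 genes listed in at least 1 library table lay in runs of at least 2 consecutively numbered genes that were lower than in the reference strain. The members were chosen by their levels in the same 4 libraries that are described here. A gene qualified when its mean level in delta-hapX was at most 0.5 times that of the reference (CPM, read counts scaled to equal library totals, with 0.5 added to each mean), when its reference mean was at least 5 CPM, and when both delta-hapX values lay below both reference values. Of all listed genes, 392 met these limits, and 83 of them, 21.2%, had a qualifying gene as the next number before or after them. The fall in delta-hapX is therefore what defined the genes and is given below as a description, without a test. Mycelium was sampled 2 h after transfer to minimal medium with 25 mM maltose, with 2 libraries per strain. The reference strain is N593 delta-kusA, which carries cspA1, pyrG- and kusA::amdS. The mutant strain carries the same 3 alleles and, in addition, delta-hapX::hph. The cspA1 allele gives short conidiophores, pyrG- makes growth depend on uridine, and loss of kusA, a Ku70 homologue, lowers non-homologous end joining so that gene replacement becomes efficient. The amdS and hph genes are the selection markers, for acetamide use and hygromycin resistance. The labels do not say whether a strain was grown in separate cultures for its libraries or whether the mutant is a single transformant.

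HapX is a basic leucine zipper protein of filamentous fungi that binds DNA together with the CCAAT-binding complex, and it is best known for adapting gene expression to iron supply, by repressing iron-consuming pathways when iron is scarce and by roles in iron uptake and storage. In filamentous fungi, genes of a common biosynthetic or catabolic pathway often lie next to each other on a chromosome and are expressed together, and secondary metabolite clusters and siderophore clusters are well-known cases. The labels and tables do not say that the number in an NRRL3 identifier follows chromosomal order, so a run below is a run of numbers and no more. The identifiers are not paired with gene names or functions in the tables used, and no role is given to any gene. The level of hapX itself, and markers of the labelled mycelium, are not analysed here for the same reason.

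The libraries held 3505555 to 4264311 expected counts, and 3 reads corresponded to 0.704 to 0.856 CPM. Across the 7479 genes with a reference mean of at least 5 CPM, log2(CPM + 0.5) correlated with r = 0.984 between the libraries of either strain and with r = 0.935 to 0.941 between strains, as a description over genes that share these libraries. No member was missing from a table. The lowest member count was a single read, and 12 of the 83 members had fewer than 10 reads in at least 1 delta-hapX library. With 2 libraries per strain, any spread measures only the difference between these libraries, which may be technical. Reads from overlapping or near-identical neighbours may also have been split or shared between adjacent gene models, since the strandedness of the counting is not given in the sources used here. In RNA from whole mycelium, fewer hyphae that express a gene and less RNA per hypha cannot be told apart.

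The 83 members fell into 36 runs, of which 29 held 2 genes, 4 held 3, 2 held 4 and 1 held 5. Together they took up 1.62% and 1.54% of the counts of reference libraries a and b and 0.518% and 0.493% of the counts of delta-hapX libraries a and b. Their reference means ran from 6.62 to 1691 CPM, with a median of 61.1 CPM, and 36 of them reached 100 CPM while 23 stayed under 20 CPM. The ratio of delta-hapX to reference had a median of 0.371 and ran from 0.157 to 0.497. A ratio of 0.25 or less was found in 17 members, 20.5%, in 15.5% of the fallers in no run and in 0.66% of all listed genes. The rule selected on this ratio. By the rule, 3.60% of all listed genes were fallers. In a fit across all 8535 genes with enough counts (edgeR's quasi-likelihood test at an adjusted p of 0.05 by Benjamini and Hochberg), 82 of the 83 members were lower, where 14.4% of all tested genes were. The rule used the same contrast, so nothing is read from that count. The member that missed the threshold was NRRL3_09070, with 29 and 36 reads in the reference and 8 and 17 in delta-hapX. The median fitted log2 fold change was -1.49 for the members and 0.00 for all tested genes.

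**Figure D1:**
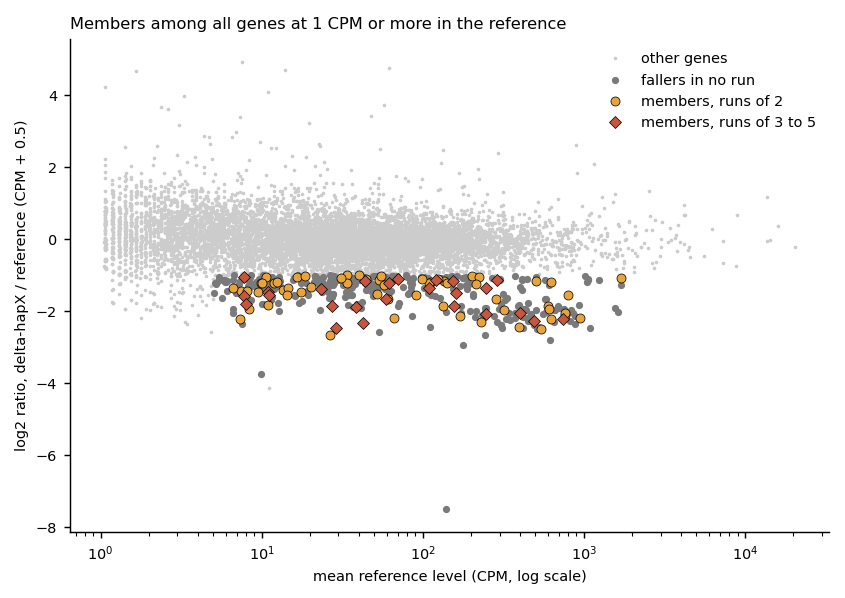
Mean reference level (CPM, log axis) against the log2 ratio of delta-hapX to reference for genes at 1 CPM or more in the reference, with members of runs of 2 in orange, members of runs of 3 to 5 as red diamonds, the 309 fallers in no run in dark grey and other genes in light grey. The members spread over the whole range of reference levels from 6.62 to 1691 CPM and lie between ratios of 0.157 and 0.497. The deepest falls belong to genes in no run, down to a ratio of 0.00551. The median ratio was nevertheless 0.371 for the members and 0.403 for the fallers in no run.

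The longest run was NRRL3_09100 to NRRL3_09104, 5 genes with coding lengths of 816 to 1344 bases. Summed over the 5 genes, the run stood at 174 and 116 CPM in the reference libraries and at 35.7 and 28.5 CPM in the delta-hapX libraries, a 4.52-fold lower sum. NRRL3_09100 had 35.6 and 21.97 CPM in the reference and 7.03 and 2.57 CPM in delta-hapX. The lower of its delta-hapX values rested on 9 reads, and its fitted log2 fold change was -2.54 (SE 0.36). NRRL3_09101, the most abundant of the 5 by count, had 52.1 and 32.6 CPM in the reference against 8.33 and 7.70 CPM, a log2 fold change of -2.37 (SE 0.26). NRRL3_09102 had 29.8 and 25.1 CPM against 6.77 and 7.70 CPM, and NRRL3_09103 had 47.1 and 30.2 CPM against 11.7 and 8.56 CPM. Both had a fitted log2 fold change of -1.90, with SEs of 0.27 and 0.26. The last gene, NRRL3_09104, was scarce throughout, at 9.61 and 6.28 CPM against 1.82 and 2.00 CPM, which were 7 reads in each delta-hapX library. In all 5 genes reference library a was above reference library b, while the delta-hapX libraries took no common order. Per length, the first 4 genes were within a narrow band in the reference, at means of 28.0, 33.9, 34.0 and 37.7 FPKM (fragments scaled to gene length and library size), and NRRL3_09104 was at 5.88 FPKM. In delta-hapX these means were 4.68, 6.43, 8.995, 9.90 and 1.42 FPKM in the order of the numbers.

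In the run NRRL3_01206 to NRRL3_01209 the reference libraries differed by no more than 1.08-fold in any gene after centring on all genes. NRRL3_01206 had 259 and 235 CPM in the reference and 86.5 and 105 CPM in delta-hapX (log2 fold change -1.35, SE 0.13). NRRL3_01207 had 62.4 and 61.1 CPM against 28.1 and 24.5 CPM, and NRRL3_01208 had 156 and 152 CPM against 67.7 and 69.3 CPM. The deepest fall of the run was that of NRRL3_01209, from 62.1 and 57.0 CPM to 18.5 CPM in both delta-hapX libraries (log2 fold change -1.67, SE 0.18). NRRL3_01211 and NRRL3_01212 formed a run of 2 after a single number in between. NRRL3_01211 had 9.38 and 5.55 CPM in the reference against 2.34 and 2.57 CPM, and NRRL3_01212, with a coding length of 3783 bases, had 14.1 and 9.90 CPM against 4.95 and 4.85 CPM. Genes beside these runs missed the limit of 0.5. NRRL3_01205 had a ratio of 0.525 and passed the test across all genes described above, whereas NRRL3_01210, between the runs, had a ratio of 0.574 and did not pass it. In NRRL3_01205 and NRRL3_01210, too, both delta-hapX values lay below both reference values, which the rule required of the members beside them. The share of all listed genes with this order was not counted, so nothing is read from it. NRRL3_01204, before NRRL3_01205, and NRRL3_01213, after NRRL3_01212, were close to the floor, at no more than 0.724 CPM in any library.

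The run NRRL3_08858 to NRRL3_08861 joined 3 moderately abundant genes and a scarce one. NRRL3_08858 had 146 and 96.6 CPM in the reference and 61.2 and 49.1 CPM in delta-hapX, NRRL3_08859 had 78.3 and 62.0 CPM against 32.8 and 31.4 CPM, and NRRL3_08860 had 186 and 134 CPM against 64.3 and 48.8 CPM. Their fitted log2 fold changes were -1.12 (SE 0.17), -1.11 (SE 0.17) and -1.48 (SE 0.16). Without reference library a, NRRL3_08858 and NRRL3_08859 were no longer members, and without delta-hapX library b, NRRL3_08858 was not. NRRL3_08861 had 24 and 41 reads in the reference and 11 and 6 in delta-hapX, a ratio of summed counts of 0.299 with an exact 95% counting interval from 0.164 to 0.517. Unlike the other 3 genes it was higher in reference library b than in library a.

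Among the runs of 3, NRRL3_08788 to NRRL3_08790 held the second-longest coding sequence of all members, NRRL3_08790 with 16923 bases or 5641 codons. NRRL3_08790 had 611 and 375 CPM in the reference and 104 and 97.6 CPM in delta-hapX, a log2 fold change of -2.27 (SE 0.17). Its neighbour NRRL3_08789 had 197 and 114 CPM against 47.4 and 37.9 CPM, and NRRL3_08788 had 28.8 and 17.9 CPM against 8.59 and 8.56 CPM. The fall was thus deeper with each number, with ratios of 0.380, 0.277 and 0.205. On the per-length scale the order of the genes was another, since NRRL3_08789 had the highest reference mean at 98.8 FPKM, ahead of NRRL3_08790 at 28.3 FPKM and NRRL3_08788 at 24.9 FPKM. In all 3 genes reference library a was above library b by a similar factor, 1.57 to 1.69 after centring on all genes.

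NRRL3_06353 to NRRL3_06355 was the most abundant of the runs of 3 or more by summed counts. Its middle gene fell the most. NRRL3_06354 had 845 and 637 CPM in the reference and 192 and 123 CPM in delta-hapX, with a log2 fold change of -2.21 (SE 0.17). NRRL3_06353 had 124 and 94.6 CPM against 45.6 and 38.8 CPM, and NRRL3_06355 had 339 and 238 CPM against 138 and 126 CPM, with log2 fold changes of -1.35 (SE 0.16) and -1.11 (SE 0.14). Without reference library a, NRRL3_06355 missed the limit.

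The run NRRL3_06513 to NRRL3_06515 paired short, abundant genes with a longer, scarcer one. NRRL3_06513 (330 bases) had 446 and 356 CPM in the reference and 99.0 and 94.1 CPM in delta-hapX. NRRL3_06514 (354 bases) had 264 and 231 CPM against 63.8 and 53.3 CPM. Their ratios, 0.242 and 0.239, were nearly the same, with log2 fold changes of -2.03 and -2.06 (SE 0.13 each). NRRL3_06515 (1482 bases) had 44.6 and 43.7 CPM against 20.1 and 18.5 CPM, a smaller change of -1.17 (SE 0.19). Per length the reference means were 1320, 752.0 and 29.5 FPKM. The gene that followed, NRRL3_06516, went the other way, from 291 and 340 CPM to 757 and 815 CPM (log2 fold change 1.34, SE 0.12).

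The run NRRL3_09068 to NRRL3_09070 was the least abundant of the runs of 3 or more and rested on few reads. NRRL3_09068 had 11.7 and 10.1 CPM in the reference against 3.91 and 3.42 CPM in delta-hapX, and NRRL3_09069 had 12.4 and 9.66 CPM against 3.39 and 3.42 CPM. NRRL3_09070 had 6.80 and 8.69 CPM against 2.08 and 4.85 CPM. It left the run without reference library b or without delta-hapX library a. Its ratio of summed counts was 0.440, with a 95% counting interval from 0.266 to 0.708, so a fall of less than 2-fold is within counting error.

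**Figure D2:**
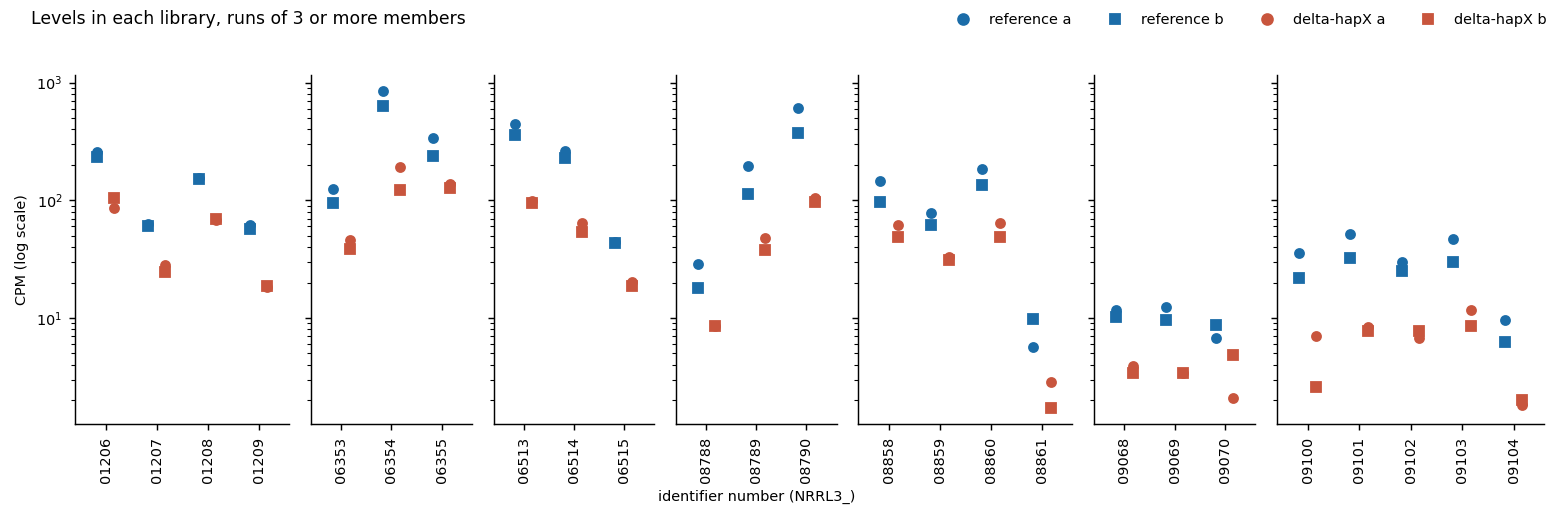
CPM (log axis) of each of the 25 members in runs of 3 or more, 1 panel per run, with circles for library a and squares for library b, blue for the reference and red for delta-hapX. The strains do not overlap in any gene, which the rule required. Blue circles lie above blue squares in most genes, in all 5 of the run that begins at NRRL3_09100 and in all 3 of the run that begins at NRRL3_08788.

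Most genes that bordered the runs, like most of all tested genes, did not pass the test across all genes. Of the 72 positions 1 number before or after a run, 5 numbers were in no table and 67 held 66 different genes, NRRL3_01210 lying between 2 runs. Of these genes, 13 had too few counts to be tested. Among the 53 tested, 4 were lower (7.55%, where 14.4% of all tested genes were), 6 were higher (11.3%, where 12.2% of all tested genes were) and 43 did not pass edgeR's adjusted p of 0.05. A bordering gene cannot itself meet the limits of the rule, which lowers the first of these shares. The median fitted log2 fold change was -0.16 for the bordering genes and 0.00 for all tested genes. The 4 lower ones were NRRL3_00898, NRRL3_01205, NRRL3_05600 and NRRL3_06356, named after their values were seen. NRRL3_00898 had a ratio of 0.234 but a reference mean of 4.03 CPM, under the limit of 5 CPM. The ratios of the other 3 were 0.525, 0.575 and 0.708. Next to the run of 5, NRRL3_09099 was higher in delta-hapX, at 12.5 and 10.3 CPM against 4.46 and 6.03 CPM in the reference, and NRRL3_09105, an abundant gene, had 799 and 651 CPM in the reference against 642 and 736 CPM in delta-hapX. After the run that ends at NRRL3_08861, NRRL3_08862 had a ratio of 0.508 at a reference mean of 6.40 CPM, and before it NRRL3_08857 had almost no reads, at 0.121 CPM in the reference.

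**Figure D3:**
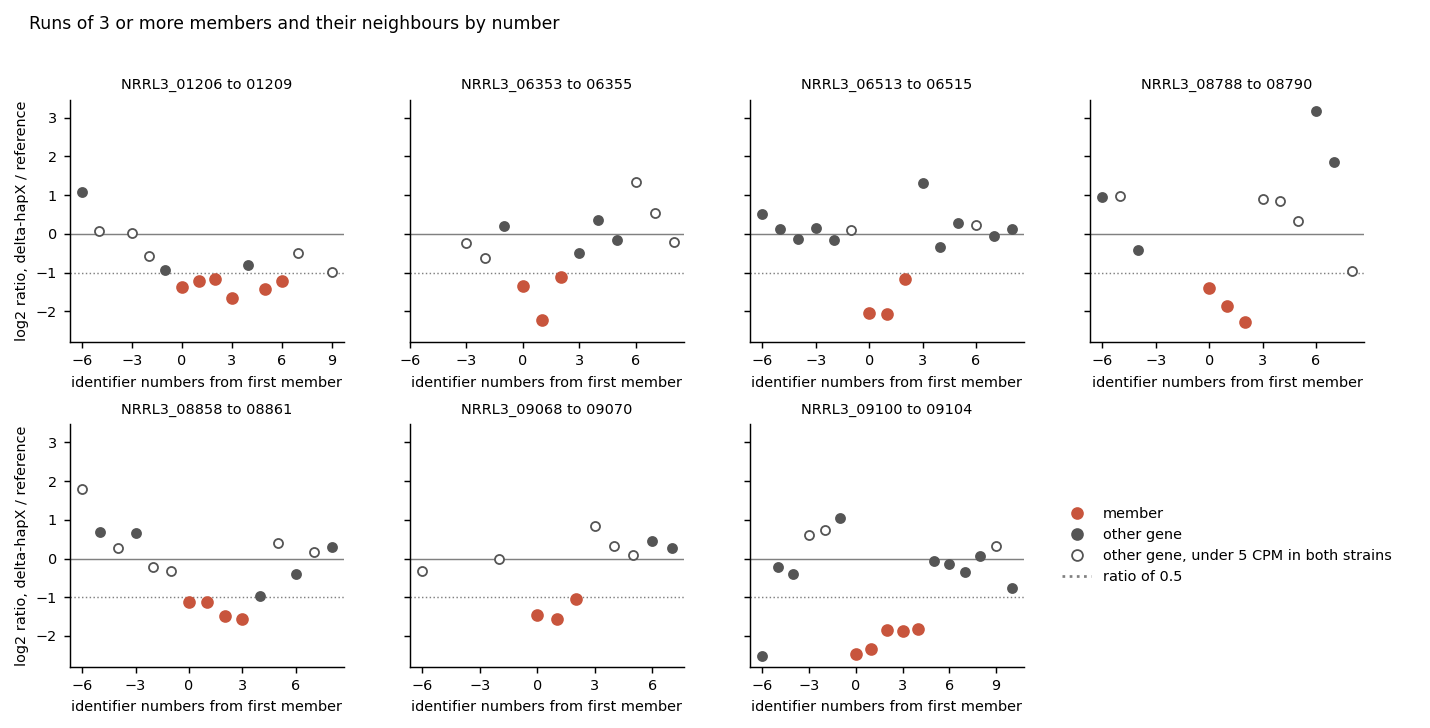
Log2 ratio of delta-hapX to reference for the 7 runs of 3 or more members and up to 6 identifier numbers on each side, with members in red, other genes in grey, genes under 5 CPM in both strains as open circles and the ratio of 0.5 as a dotted line. Many neighbours lie near 0, with exceptions in both directions. NRRL3_09094, a faller in no run, lies at -2.51 at the left edge of the panel of the run of 5, and NRRL3_08794 lies at 3.18 to the right of the run that begins at NRRL3_08788. NRRL3_01205 and NRRL3_01210, beside and between 2 runs, lie just above the dotted line, and the gene after NRRL3_06515 lies at 1.32.

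The runs of 2 held 58 genes. Summed over each run, the levels in delta-hapX were 2.05 to 5.80 times lower than in the reference over all 36 runs, with a median of 2.93. In 25 of the 36 runs the ratios of the members differed by no more than 1.5-fold. The rule held every ratio at or under 0.5, which by itself limits how far members can differ, and nothing about the runs is read from this count. The largest difference within a run was 2.57-fold, between NRRL3_02357 with a ratio of 0.177 and NRRL3_02358 with 0.455.

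The run of 2 with the lowest summed ratio was NRRL3_07606 and NRRL3_07607. NRRL3_07606, at 246 bases the shortest member, had 26.7 and 26.8 CPM in the reference and 4.43 and 3.14 CPM in delta-hapX, and its ratio of 0.157 was the lowest of all members. NRRL3_07607 had 11.7 and 10.1 CPM against 2.86 and 2.57 CPM. These values are low in reads, with 17 and 11 for NRRL3_07606 and 11 and 9 for NRRL3_07607 in delta-hapX. Next came NRRL3_02357, which had 574 and 514 CPM in the reference and 92.2 and 99.6 CPM in delta-hapX. Its partner NRRL3_02358 had 51.1 and 56.0 CPM against 27.3 and 20.8 CPM.

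In NRRL3_05141 and NRRL3_05142 both genes were short, abundant and strongly lower. NRRL3_05141 (477 bases) had 820 and 717 CPM in the reference and 186 and 167 CPM in delta-hapX, and NRRL3_05142 (582 bases) had 422 and 367 CPM against 68.2 and 77.0 CPM. The fitted log2 fold changes were -2.10 (SE 0.12) and -2.42 (SE 0.13). NRRL3_03716 (450 bases) and NRRL3_03717 (609 bases) had the most equal levels per length of any run, at reference means of 537.0 and 541 FPKM. NRRL3_03716 had 248 and 212 CPM against 43.7 and 48.2 CPM, and NRRL3_03717 had 333 and 307 CPM against 79.4 and 83.6 CPM.

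Other runs paired an abundant gene with a scarce one. NRRL3_01902 had 651 and 602 CPM in the reference and 127 and 140.3 CPM in delta-hapX, while NRRL3_01903 beside it had 7.97 and 8.21 CPM against 3.65 and 1.71 CPM. Likewise NRRL3_11759 had 767 and 1119 CPM in the reference and 187 and 224 CPM in delta-hapX, and NRRL3_11758 had 10.1 and 14.97 CPM against 4.95 and 5.42 CPM. In each of these runs the abundant gene had the lower ratio, 0.213 against 0.370 and 0.218 against 0.436. The 0.5 added to each mean raises the ratio of a scarce gene more than that of an abundant one. This order did not hold in all such runs. NRRL3_02451 and NRRL3_02452, with reference means of 285 and 7.39 CPM, had ratios of 0.314 and 0.214. The most abundant member of all, NRRL3_05796, had 1569 and 1812 CPM against 805 and 794 CPM, and NRRL3_05795 had 8.91 and 10.9 CPM against 3.39 and 4.56 CPM. There the ratios of 0.473 and 0.431 were close.

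NRRL3_06536 and NRRL3_06537 differed between the reference libraries in opposite directions. NRRL3_06536 (4065 bases) had 559 and 1044 CPM in reference libraries a and b and 280.2 and 264 CPM in delta-hapX. NRRL3_06537 (402 bases) had 691 and 502 CPM, the opposite order, against 164 and 163 CPM. The strains did not overlap in either gene, which the rule required. In NRRL3_06536 the log2 difference between reference libraries a and b was -0.93 after centring on all genes, and its fitted log2 fold change between strains was -1.54 (SE 0.20).

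**Figure D4:**
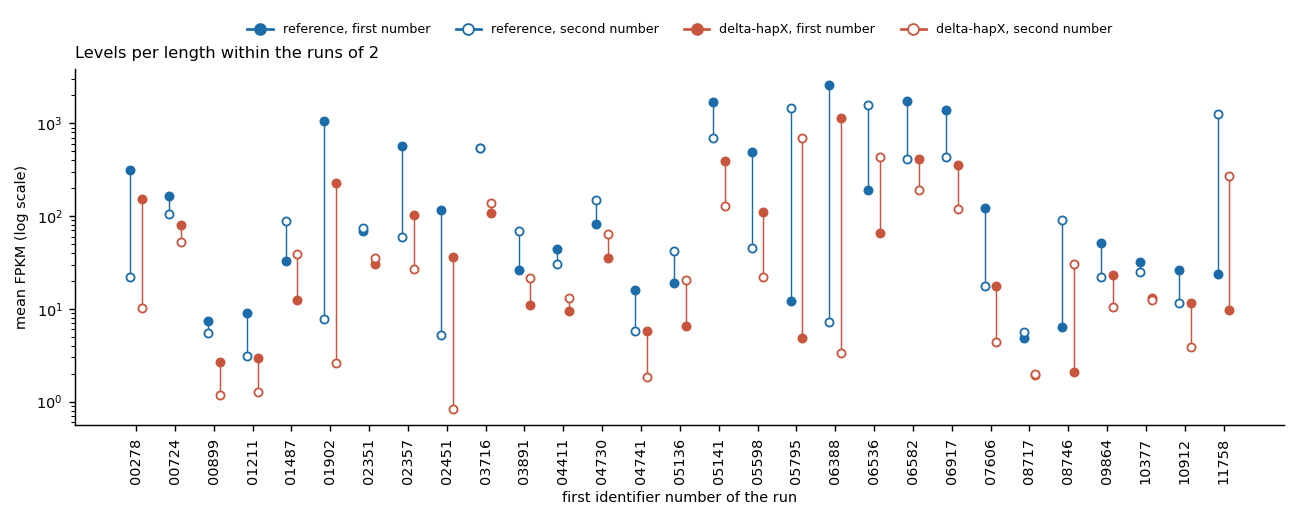
Mean FPKM (log axis) of the genes in each of the 29 runs of 2, with filled circles for the first number and open circles for the second, blue for the reference and red for delta-hapX, and a line joining the genes of a run. Each gene's red circle sits below its blue circle, although the lines of a run overlap where its genes differ widely. The rule required the lower value in CPM. The blue lines range from almost none at NRRL3_03716 to a 353-fold difference at NRRL3_06388.

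Several features of the members were not part of the rule. Levels per length within a run were often unequal. The highest member exceeded the lowest by a median of 3.79-fold in reference FPKM over the 36 runs, by more than 10-fold in 10 runs and by less than 1.5-fold in 6. The widest gap, 353-fold, was between NRRL3_06388 at 2571 FPKM and NRRL3_06389 at 7.29 FPKM. Coding lengths had a median of 1026 bases and an interquartile range from 652.5 to 1502 bases. The 309 fallers in no run had a median of 939 bases, and the 7479 listed genes with a reference mean of at least 5 CPM one of 1380 bases. Genes under 600 bases made up 19.3% of the members, 27.8% of the fallers in no run and 10.3% of the listed genes at 5 CPM or more. At the other end, 6 members, 7.23%, exceeded 3000 bases, against 3.24% of the fallers in no run and 9.19% of the listed genes at 5 CPM or more. NRRL3_10912 had the longest coding sequence of the members, 18807 bases, with 539 and 466 CPM in the reference and 243 and 203 CPM in delta-hapX. The median level per length was 51.1 FPKM in the reference for the members, 54.0 FPKM for the fallers in no run and 31.0 FPKM for the listed genes at 5 CPM or more. These comparisons over genes are descriptions and were not tested.

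The difference between the reference libraries, which the rule did not use as such, was often shared within a run. After centring on the median of the 7479 genes at 5 CPM or more, neighbouring members of a run lay on the same side in 35 of 47 pairs, 74.5%, where 51.2% of all 5832 consecutive pairs at that level did. In the delta-hapX libraries the same count was 28 of 47, 59.6%, where 51.5% of all pairs did. In 24 of the 36 runs all members were on 1 side between the reference libraries, higher in library a in 18 runs and higher in library b in 6. Of the single members, 59 of 83 were higher in reference library a, where 187 of the 309 fallers in no run, 60.5%, and 50.0% of all genes at this level were, the last by construction. Members thus leaned to library a as a whole, which by itself raises the count of neighbours on the same side above that of all genes, and the part of this in the shared side within runs was not tested. The median signed difference was 0.16 on the log2 scale, where members higher in library a and members higher in library b offset each other. Single members reached 1.04 (NRRL3_08718) and -0.93 (NRRL3_06536). The median log2 ratio between strains, -1.43, was bounded by the rule and is no measure of how small these differences are. The 47 pairs share libraries and some share a gene, so no test was made of these counts.

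**Figure D5:**
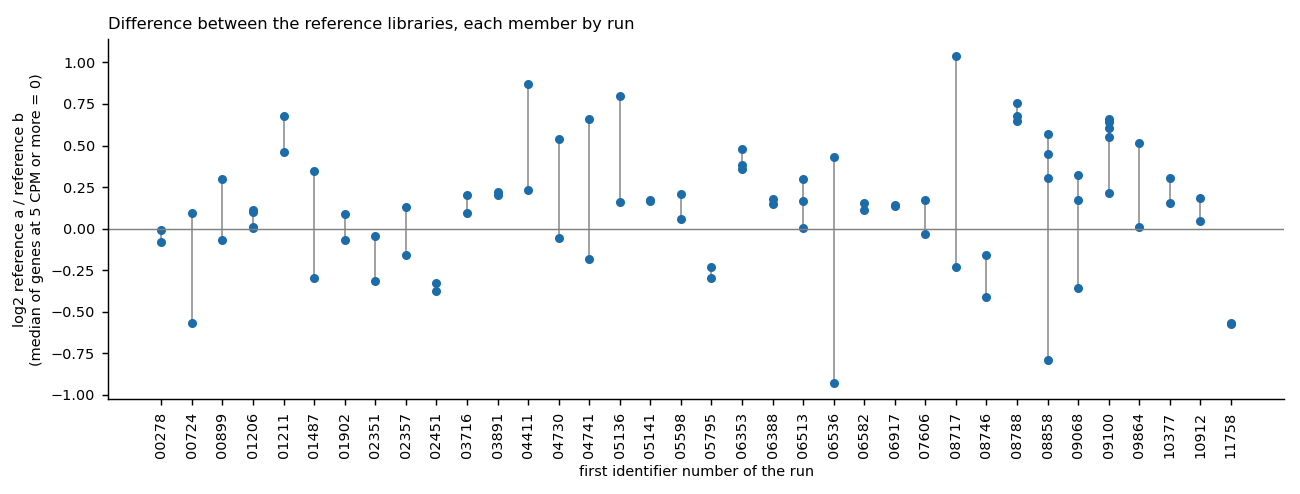
Log2 of reference library a over reference library b for every member, by run in the order of the identifier numbers, with the median of all genes at 5 CPM or more set to 0 and a line joining the members of a run. Points of a run often lie together on 1 side of 0, as for the runs that begin at NRRL3_08788, NRRL3_09100 and NRRL3_11758, while runs such as NRRL3_06536 and NRRL3_08858 span it.

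The runs were scattered over the identifier numbers. Every block of 1000 numbers held at least 1 run, from 1 run and 2 members in the block that starts at 7000 to 6 runs and 14 members in the block that starts at 6000. Besides the runs NRRL3_01206 to NRRL3_01212, only the following pairs of runs lay within a few numbers of each other. NRRL3_02351 and NRRL3_02352 were followed, after 4 numbers, by NRRL3_02357 and NRRL3_02358, and the 4 genes in between had ratios of 0.982, 1.12, 0.486 and 0.605 in the order of the numbers. The third of them, NRRL3_02355, met the limits of the rule with 11.3 and 21.7 CPM in the reference and 7.81 and 7.70 CPM in delta-hapX, but neither of its neighbours by number did. The first, NRRL3_02353, was abundant, at 1864 and 1725 CPM in the reference and 1717 and 1808 CPM in delta-hapX. NRRL3_05136 and NRRL3_05137 were separated by 3 genes from NRRL3_05141 and NRRL3_05142, and the ratios of these 3 were 0.795, 1.14 and 0.989.

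Of the 90 abundant genes with a fitted log2 fold change of -1.5 or below among the tested genes with a mean of 93.1 CPM or more, 18 were members, which is 20% of those genes and 21.7% of the members. The 90 were drawn from 8535 tested genes by the same contrast, and 21.2% of all fallers were members. Nothing is therefore read from this overlap. The 18 shared genes lay in 13 runs, and 3 runs, those that begin at NRRL3_03716, NRRL3_05141 and NRRL3_06536, consisted of such genes alone. The members NRRL3_06388, NRRL3_06583 and NRRL3_07606 encode proteins under 100 residues by their coding length. They are 3.61% of the members, where 257 of the 10898 listed genes encode such proteins. NRRL3_08790 and NRRL3_10912 belong to the 7 listed genes with coding lengths over 15000 bases, where 83 of the 10898 listed genes were members. Nothing is read from so few genes. At the limit of the rule, NRRL3_00725 and NRRL3_10378 were the members with the highest ratio, 0.497 each, and NRRL3_06124 and NRRL3_07032, with ratios of 0.503 and 0.504, were the closest genes outside it that would otherwise have joined a faller. In all, 14 such genes had ratios up to 0.55.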

How the data were processed

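Messenger RNA of mycelium was sequenced as single-end reads, per the labels' protocols, and mapped to the NRRL3 genome, per the series' design text. Bowtie2 and HISAT are the tools in the submitters' processing notes; the quantifier and annotation release are not given in the sources used. Each deposited table lists, per the file headers, gene length, an expected count (estimated reads, not normalized) and an FPKM value computed by the authors. Genes absent from a table were given 0. Every length is a multiple of 3 and was read as a coding length. Library totals were 4264311 and 4142850 for reference libraries a and b and 3840181 and 3505555 for delta-hapX libraries a and b. Intervals and the floor of 3 reads cover counting error only.

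CPM values were expected counts scaled to the column sum. Members followed the rule given in the report. They, the run-based description and the abundant set were chosen with earlier results of these data known. The test across genes was edgeR's quasi-likelihood test (edgeR 4.0.16, R 4.3.3) on counts rounded to whole numbers, with TMM scaling, filterByExpr and Benjamini-Hochberg adjustment, and SEs were derived from the fold change and the F statistic. It was tested on simulated data. Alternatives were other scalings, pseudocounts, floors, limits and definitions of a run, DESeq2 1.42.0, limma 3.58.1 on log2(FPKM + 1) and log2(FPKM + 0.1), the replicate letter as a block, and leaving out each library. Same-lettered libraries deviated with a correlation of 0.0423 across genes and were not treated as pairs. Named genes were all members of runs of 3 or more, both members of the 6 runs of 2 with the lowest summed ratio and of the 3 with the highest summed reference level, those nearest the limit, and the genes bordering runs of 4 or more; others were named after their values were seen. None of the 10898 identifiers matched the available gene table (0 matches), which covers assembly ASM285v2.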

Additional observations from a re-analysis of the deposited data

How the results depend on the processing

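The number of members was 83, with 36 runs, and depended most on the limit itself. With a ratio of at most 0.4, 36 genes in 16 runs remained, with a median log2 ratio of -1.85 against -1.43. All of them were among the 83, which a stricter limit fixes in advance. TMM scaling gave 79 members, TPM values from the deposited FPKM 65, a pseudocount of 1 gave 74, a reference floor of 10 CPM 66 and one of 1 CPM 97. Skipping numbers in no table gave 85, and allowing 1 other gene inside a run, an alternative added after the data had been seen, gave 115 members in 49 runs. Leaving out 1 library gave 76 to 114 members, 33 to 51 runs and medians of -1.54 to -1.36. Of the 83 members, 49 stayed members in all 4 of these cases, and 18 of the 36 runs stayed whole, among them the runs that begin at NRRL3_09100, NRRL3_01206, NRRL3_06513 and NRRL3_08788. The rule used the same contrast as the fits across all genes, so nothing is read from the member counts that follow. Of all tested genes, 14.4% were lower in the main fit. Of the 83 members, 68 to 83 were called lower over the fits, and none had a fitted fold change above 0. Without 1 library, 73 to 78 were called. The replicate block gave 83 of 83 members and 1406 lower genes in all, although nothing in the labels says that a letter marks a pair. Over all genes the 1225 lower calls became 810 with DESeq2's Wald test and 714 with limma on log2(FPKM + 1) without a filter, and 890 to 1076 without 1 library; the cause was not tested. Depth limits the scarce members, 23 of which lay under 20 CPM in the reference.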
